A study of Mus musculus with 8 samples.

Results

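The 5 genes described here encode cell surface receptors that guide lymphocytes to the gut and to other mucosal surfaces. They are the chemokine receptor genes Ccr9 and Ccr10, the G protein-coupled receptor gene Gpr15, and the integrin subunit genes Itga4 and Itgb7, whose products pair as the integrin α4β7. They were taken by symbol, as the rows of the count table whose Ensembl identifiers have these names in GENCODE for GRCm38, and they are 5 of the 51826 genes in that table. All 5 passed the filter on low counts and were among the 16484 genes tested.

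RNA sequencing was performed on splenocytes of 8 female Balb/c mice, unsorted apart from lysis of red blood cells, to find genes whose expression differs after oral tRA (all-trans retinoic acid, the active metabolite of vitamin A). The tRA group of 4 mice received tRA in canola oil by mouth every day from weaning until harvest at 3 months of age, at 1 mg/kg body weight. The control group of 4 mice received the canola oil vehicle alone over the same time, and neither group received pristane. The sample labels carry a dose of 1 mg/kg for all 8 mice, controls included, whereas the sample titles separate control from tRA, and the grouping followed the titles. By the study's methods each sample is a separate mouse, so the spread within a group is that between animals. The counts on genes totaled 37539631, 31833853, 35924683 and 30919272 in control mice 1 to 4, and 33755595, 31810417, 35165876 and 32042754 in tRA mice 1 to 4.

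As background, retinoic acid made by dendritic cells of the gut binds nuclear receptors of the RAR family, which act on DNA as partners of RXR receptors, and it induces gut homing receptors on lymphocytes while they are being activated. CCR9 follows the chemokine CCL25 of the small intestine, α4β7 binds the addressin MAdCAM-1 on gut vessels, GPR15 guides T cells to the colon, and CCR10 follows CCL28 and CCL27 to mucosal surfaces and skin. The spleen is a lymphoid organ through which such lymphocytes circulate rather than their destination.

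Between tRA and control, none of the 5 receptor genes passed the test, a quasi-likelihood F test in edgeR with a Benjamini-Hochberg FDR threshold of 0.1 over all genes tested, and 0 of those genes (0%) did. At an unadjusted p under 0.05 edgeR gave 1070 genes, while DESeq2 gave 27 DEGs and limma-voom gave 1 at the same FDR threshold, with no receptor gene among them. The number with an unadjusted p under 0.05 was 2105 without tRA mouse 1 and 657 without tRA mouse 4. Ccr9 and Itga4 were 2 of the 485 genes with an unadjusted p under 0.05 and a higher level with tRA, which were 2.94% of the genes tested. Ccr10 was 1 of the 585 genes with such a p and a lower level with tRA, which were 3.55%. Levels are in CPM, with TMM factors to bring the libraries to 1 scale, and fold changes are the log2 of tRA over control. In bulk RNA of splenocytes, fewer cells that express a receptor and less RNA per cell cannot be told apart.

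Ccr9 (ENSMUSG00000029530, chr9:123678439-123784330, plus strand) encodes the receptor for CCL25. Its level was 14.3, 16.9, 16.2 and 20.0 CPM in control mice 1 to 4 and 16.3, 22.3, 26.2 and 27.3 CPM in tRA mice 1 to 4. In 3 of the 4 tRA mice Ccr9 lay above every control mouse, while tRA mouse 1 lay within the control range, so the groups overlapped. The means were 16.8 ± 2.39 CPM in controls and 23.0 ± 4.99 CPM with tRA (SD, n = 4 each). The log2 fold change of Ccr9 was 0.45 (SE 0.160, 95% interval 0.10 to 0.81). In edgeR the p was 0.0164 and the FDR 0.757. The exact permutation test on the difference in mean log2 CPM, two-sided, gave p = 0.0857, where the smallest p that 4 mice against 4 allow is 0.0286. Without tRA mouse 1 the log2 fold change of Ccr9 was 0.59 (edgeR FDR 0.193), without tRA mouse 4 it was 0.36 (edgeR FDR 0.999) and without control mouse 1 it was 0.38 (edgeR FDR 0.867). Without either of the latter mice the unadjusted p in edgeR was no longer under 0.05. On the linear scale the interval spans 1.07-fold to 1.75-fold.

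Itga4 (ENSMUSG00000027009, chr2:79255426-79333123, plus strand) encodes the α4 subunit, which pairs with β7 or with β1. Itga4 stood at 368, 391, 297 and 369 CPM in control mice 1 to 4 and at 377, 437, 390 and 547 CPM in tRA mice 1 to 4. The groups overlapped, with tRA mice 2 and 4 above every control, and tRA mouse 4 set the upper end. The means were 356 ± 40.8 CPM in controls and 438 ± 77.2 CPM with tRA (SD, n = 4 each), a log2 fold change of 0.30 (SE 0.126, 95% interval 0.02 to 0.57). In edgeR this gave p = 0.0382 and an FDR of 0.757, and the exact permutation test gave p = 0.0857, two-sided. Without tRA mouse 4 the log2 fold change of Itga4 was 0.17, with an FDR of 0.999 in edgeR, and without control mouse 3 it was 0.21, with an FDR of 0.894. The unadjusted p was under 0.05 in 10 of 15 alternatives, and not without tRA mouse 2 or 4 or control mouse 1, 3 or 4.

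Itgb7 (ENSMUSG00000001281, chr15:102215995-102231944, minus strand) encodes the β7 subunit, the partner of α4 in α4β7 and of αE in the integrin of intraepithelial lymphocytes. Itgb7 was at 527, 518, 640 and 591 CPM in control mice 1 to 4 and at 610, 590, 597 and 561 CPM in tRA mice 1 to 4. Every tRA mouse lay inside the control range. The log2 fold change was 0.05 (SE 0.0825, 95% interval -0.13 to 0.23, edgeR FDR 0.913), from means of 569 ± 57.6 CPM in controls and 590 ± 20.6 CPM with tRA (SD, n = 4 each). On the linear scale the interval for Itgb7 spans 0.913-fold to 1.18-fold.

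Gpr15 (ENSMUSG00000047293, chr16:58717433-58719070, minus strand) had few reads, with 36, 37, 48 and 52 counts in control mice 1 to 4 and 39, 27, 58 and 47 counts in tRA mice 1 to 4. These correspond to 0.974, 1.15, 1.39 and 1.68 CPM in controls and to 1.19, 0.850, 1.57 and 1.44 CPM with tRA, and the groups overlapped over nearly their whole ranges. The log2 fold change of Gpr15 was -0.03 (SE 0.260, 95% interval -0.61 to 0.54, edgeR FDR 0.986). The estimate is close to 0, and it turned positive without control mouse 4 (0.11) and without tRA mouse 2 (0.11).

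Ccr10 (ENSMUSG00000044052, chr11:101172997-101175443, minus strand), the receptor for CCL28 and CCL27 that IgA-secreting plasma cells carry, was also rare. It had 55, 52, 73 and 70 counts in control mice 1 to 4 and 26, 35, 27 and 41 counts in tRA mice 1 to 4. As CPM these were 1.49, 1.62, 2.11 and 2.26 in controls and 0.794, 1.10, 0.732 and 1.25 with tRA. All 4 tRA mice lay below the lowest control mouse. Groups that did not overlap, with tRA lower, were seen for 269 or 1.63% of the genes tested, and with tRA higher, which no receptor gene showed, for 315 or 1.91%. The mean level of Ccr10 was 1.87 ± 0.374 CPM in controls and 0.970 ± 0.248 CPM with tRA (SD, n = 4 each), a log2 fold change of -0.95 (SE 0.247, 95% interval -1.49 to -0.40). In edgeR the p was 0.00295 and the FDR 0.757, and DESeq2 gave an FDR of 0.150. The exact permutation test gave p = 0.0286, two-sided, the smallest that this design allows. Of the genes tested, 76 or 0.461% had a log2 fold change as low as that of Ccr10 or lower, and 478 or 2.90% had 1 as high as that of Ccr9 or higher.

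**Figure D1:**
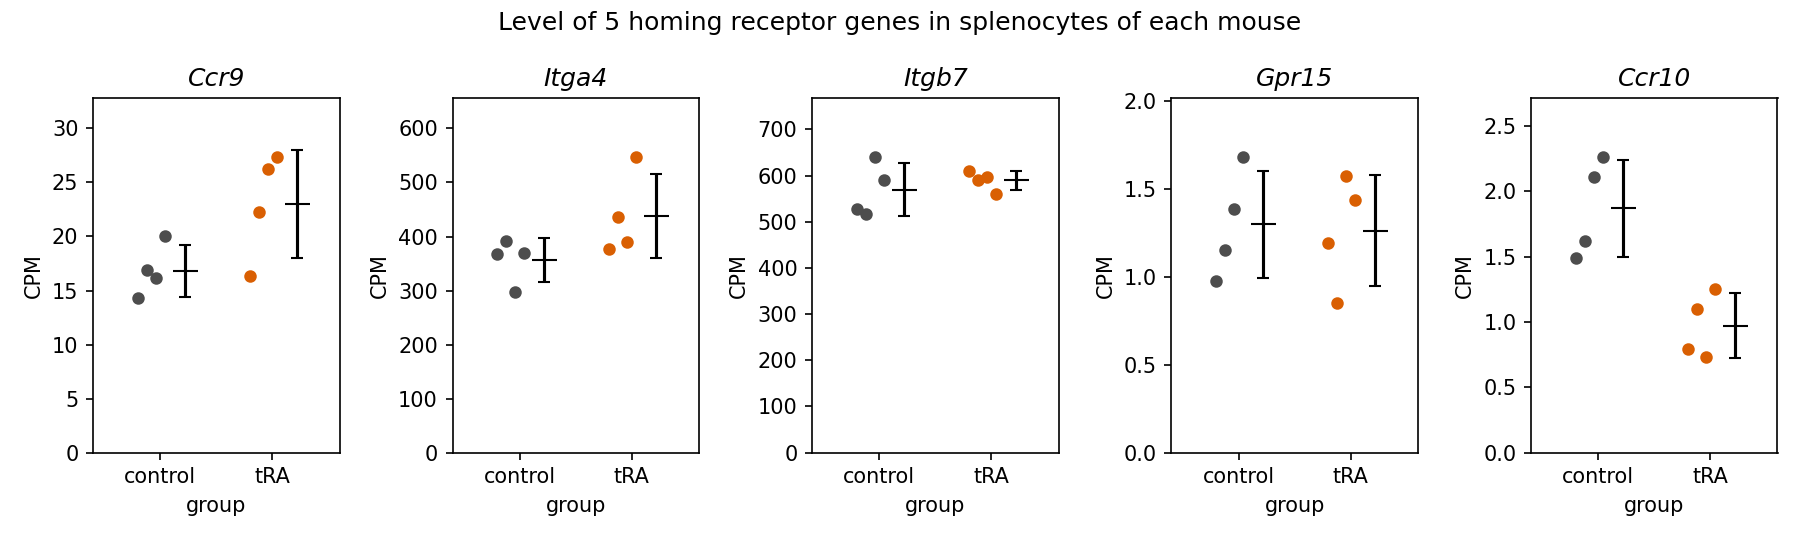
Level in CPM of Ccr9, Itga4, Itgb7, Gpr15 and Ccr10 in each mouse (points, from left to right mice 1 to 4) with the mean and SD of each group beside them, each panel on its own axis from 0. The 4 tRA mice lie below the 4 control mice for Ccr10, between 0.732 and 1.25 CPM against 1.49 to 2.26 CPM, and the groups overlap for the other genes.

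Levels of the receptor genes can be set beside each other only per length, as RPKM over the union of a gene's annotated exons. Itgb7 had the highest level, 205 ± 20.8 RPKM in controls and 213 ± 7.44 RPKM with tRA (SD, n = 4 each). Itga4 followed at 25.5 ± 2.92 RPKM in controls and 31.3 ± 5.52 RPKM with tRA. Ccr9 stood at 1.64 ± 0.233 and 2.25 ± 0.486 RPKM, and each mouse kept the order Itgb7, Itga4 and Ccr9. Ccr10 and Gpr15 came last, at 1.08 ± 0.217 and 0.793 ± 0.187 RPKM in controls and at 0.562 ± 0.144 and 0.771 ± 0.194 RPKM with tRA. The ranges of these 2 genes overlapped in both groups. Within a mouse, Ccr10 was above Gpr15 per length in all 4 control mice and below it in 3 of 4 tRA mice, tRA mouse 2 being the exception. Ccr9 and Itga4 have long alternative exons in the annotation. By the longest coding transcript, a length chosen after the data were seen, the control means were 212 RPKM for Itgb7, 36.5 RPKM for Itga4 and 3.24 RPKM for Ccr9, in the same order.

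Within each mouse, β7 mRNA exceeded α4 mRNA per length by 5.18-fold to 10.9-fold over the union of exons, and by 3.73-fold to 7.84-fold over the longest coding transcripts. The log2 ratio of Itga4 over Itgb7 was -3.01 ± 0.31 in controls and -2.78 ± 0.29 with tRA (SD, n = 4 each; exact permutation p = 0.400, two-sided). Itgb1, which encodes the β1 subunit that pairs with α4 in the receptor for VCAM-1, was higher per length than Itga4 by 1.24-fold to 2.44-fold over the union of exons. Over the longest coding transcripts the order was turned in 1 of the 8 mice. Its level was 193 ± 16.6 CPM in controls and 192 ± 20.5 CPM with tRA, a log2 fold change of -0.01 (SE 0.0911, edgeR FDR 0.992). The log2 ratio of Itga4 over Itgb1 was -0.89 ± 0.28 in controls and -0.60 ± 0.25 with tRA (exact permutation p = 0.171, two-sided, n = 4 each). Itgae encodes αE, the other partner of β7. It was at 14.6, 22.1, 20.3 and 25.8 CPM in control mice 1 to 4 and at 16.8, 20.8, 33.0 and 27.7 CPM in tRA mice 1 to 4, with a log2 fold change of 0.25 (SE 0.214, edgeR FDR 0.838). Itgae overlapped between the groups, with tRA mice 3 and 4 above the controls. Per length, Itgb7 exceeded Itgae by 29.9-fold to 60.1-fold in the 8 mice.

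The ratio of Ccr9 to Ccr10 within a mouse combines a receptor that was higher with a receptor that was lower. Per length over the union of exons its log2 was 0.69, 0.81, 0.37 and 0.57 in control mice 1 to 4 and 1.79, 1.76, 2.59 and 1.88 in tRA mice 1 to 4. Every tRA mouse lay above every control mouse. The means were 0.61 ± 0.19 and 2.01 ± 0.39 (SD, n = 4 each), a difference of 1.40. Over the longest coding transcripts every log2 ratio is higher by 0.98, which leaves that difference as it is, so the level of the ratio depends on the length chosen. The ratio was formed from genes already seen to differ in opposite directions, so it is a description of these mice with no test.

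Across the 8 mice, 10 pairs of receptor genes were compared by the correlation of log2 CPM. Ccr9 and Itga4 gave the highest Pearson r, 0.70 (exact permutation p = 0.0394, 0.394 after Benjamini-Hochberg adjustment over the 10 pairs). Spearman's rho for this pair was 0.81 (exact permutation p = 0.0218, adjusted 0.218). Without the 2 mice farthest from the median of Ccr9, tRA mice 3 and 4, r was 0.55, and r was 0.49 on deviations from the group means. Itga4 and Itgb7, the 2 subunits of α4β7, had an r of -0.38 (exact permutation p = 0.367, adjusted 0.648) and a rho of -0.45 (exact permutation p = 0.267, adjusted 0.600). Over the 6 mice other than tRA mouse 4 and control mouse 3, the farthest from the median of Itga4, r for Itga4 and Itgb7 was 0.18. On deviations from the group means of all 8 mice it was -0.74, with -0.86 within the control mice and -0.98 within the tRA mice (n = 4 each), so the pair ran in opposite directions within both groups. Ccr9 and Ccr10 gave an r of -0.38 over all mice (exact permutation p = 0.339, adjusted 0.648) and of 0.50 on deviations from the group means. No pair passed the adjustment.

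The genes with the profile most like each receptor gene were sought by Pearson's r of log2 CPM over the 8 mice, among genes with a mean of at least 5 CPM. With 10484 or more genes compared over 8 mice, high values arise by selection and are given as a description. The group means were not removed, so a difference between tRA and control in the same direction raises r. For Ccr9 they were Galm (r = 0.98), Zscan26 (r = 0.97) and Zfp770 (r = 0.97). For Itga4 they were Atp11b (r = 0.98), Il1rap (r = 0.97) and Prdm10 (r = 0.97). For Itgb7 they were Cd3g, a chain of the T cell receptor complex (r = 0.97), Cep95 (r = 0.97) and Nit1 (r = 0.96). Gpr15 was most like Gbp10 (r = 0.95), Espn (r = 0.93) and Phf11a (r = 0.92). Ccr10 was most like Actg1, a cytoplasmic actin (r = 0.94), Dnajb1, a heat shock cochaperone (r = 0.93), and Ngp, a granule gene of neutrophil precursors (r = 0.90). Dnajb1 was at 786 ± 212 CPM in controls and 385 ± 158 CPM with tRA, a log2 fold change of -1.03 (edgeR FDR 0.757).

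Most chemokine ligands of these receptors had few counts or none in splenocyte RNA, unlike some integrin ligands. Ccl25, the ligand of CCR9, was at 4.03 ± 0.662 CPM in controls and 4.06 ± 0.380 CPM with tRA (SD, n = 4 each; log2 fold change 0.01, SE 0.157, edgeR FDR 0.991). Ccl28 had 0 to 2 counts per mouse and Ccl27a 0 to 6, so the ligands of CCR10 were too low to be tested. Madcam1, the addressin bound by α4β7, had 5, 7, 16 and 2 counts in control mice 1 to 4 and 5, 3, 0 and 6 counts in tRA mice 1 to 4, and was not tested either. The gene of the GPR15 ligand, 2610528A11Rik, passed the filter with 0 to 19 counts per mouse and had a log2 fold change of -0.42 (SE 0.675, edgeR FDR 0.911).

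Vcam1, whose product binds α4β1 and is made in the spleen by stromal cells and red pulp macrophages, was at 108 ± 14.8 CPM in controls and 105 ± 29.3 CPM with tRA (log2 fold change -0.04, SE 0.183, edgeR FDR 0.977). Fn1, the gene of fibronectin, another ligand of α4 integrins, varied widely between mice. It was at 41.8, 154, 148 and 95.6 CPM in control mice 1 to 4 and at 91.2, 135, 222 and 168 CPM in tRA mice 1 to 4, with a log2 fold change of 0.49 (SE 0.364, edgeR FDR 0.813). Cdh1, the gene of E-cadherin, which αEβ7 binds, was at 2.99 ± 0.546 CPM in controls and 2.72 ± 0.647 CPM with tRA (log2 fold change -0.13, SE 0.216, edgeR FDR 0.914). Of the 8 ligand genes, 5 were tested and none passed, with a median log2 fold change of -0.04 beside 0.00 for all genes tested.

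Within a list, the most abundant gene is the 1 with the highest mean CPM over all 8 mice, without regard to length. Of the retinoid receptor genes, Rara was the most abundant, at 129 ± 11.6 CPM in controls and 136 ± 7.25 CPM with tRA (SD, n = 4 each; log2 fold change 0.08, edgeR FDR 0.856). Rarb, which retinoic acid induces in many cells through its own receptors, was at 1.38, 1.71, 1.07 and 1.49 CPM in control mice 1 to 4 and at 1.62, 2.11, 1.74 and 2.14 CPM in tRA mice 1 to 4. In 3 of 4 tRA mice Rarb lay above every control mouse. Its log2 fold change was 0.43 (SE 0.208, 95% interval -0.03 to 0.89), with an edgeR FDR of 0.776. Rarg had a log2 fold change of -0.05 (edgeR FDR 0.914), Rxra of 0.01 (0.989) and Rxrb of -0.04 (0.904), and Rxrg, with 1 to 5 counts per mouse, was not tested. The 5 retinoid receptor genes tested had a median log2 fold change of 0.01.

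Genes of retinoid metabolism were low in these cells. Of the 12 listed, 7 were tested, 4 with a positive and 3 with a negative log2 fold change, and their median was 0.05. Rdh10, an enzyme of retinal synthesis, led at 16.2 CPM in controls and 16.8 CPM with tRA (log2 fold change 0.05). Aldh1a2, a retinal dehydrogenase that makes retinoic acid, had the highest log2 fold change of that list, 0.54 (SE 0.463, edgeR FDR 0.837), on 3 to 33 counts per mouse. Stra6, a transporter of retinol, had the lowest, -0.52 (SE 0.408, edgeR FDR 0.821). Cyp26a1 and Cyp26b1, enzymes that clear retinoic acid and are induced by it in many tissues, had 0 to 13 and 2 to 8 counts per mouse and were not tested. Among 9 genes known to respond to retinoic acid, 5 were tested and none passed, with a median log2 fold change of 0.07. Cd38 was the most abundant of these at 92.7 ± 5.20 CPM in controls and 102 ± 6.70 CPM with tRA (log2 fold change 0.14, edgeR FDR 0.778), Rarb had the highest log2 fold change, and Hic1 the lowest, -0.19 (edgeR FDR 0.875).

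**Figure D2:**
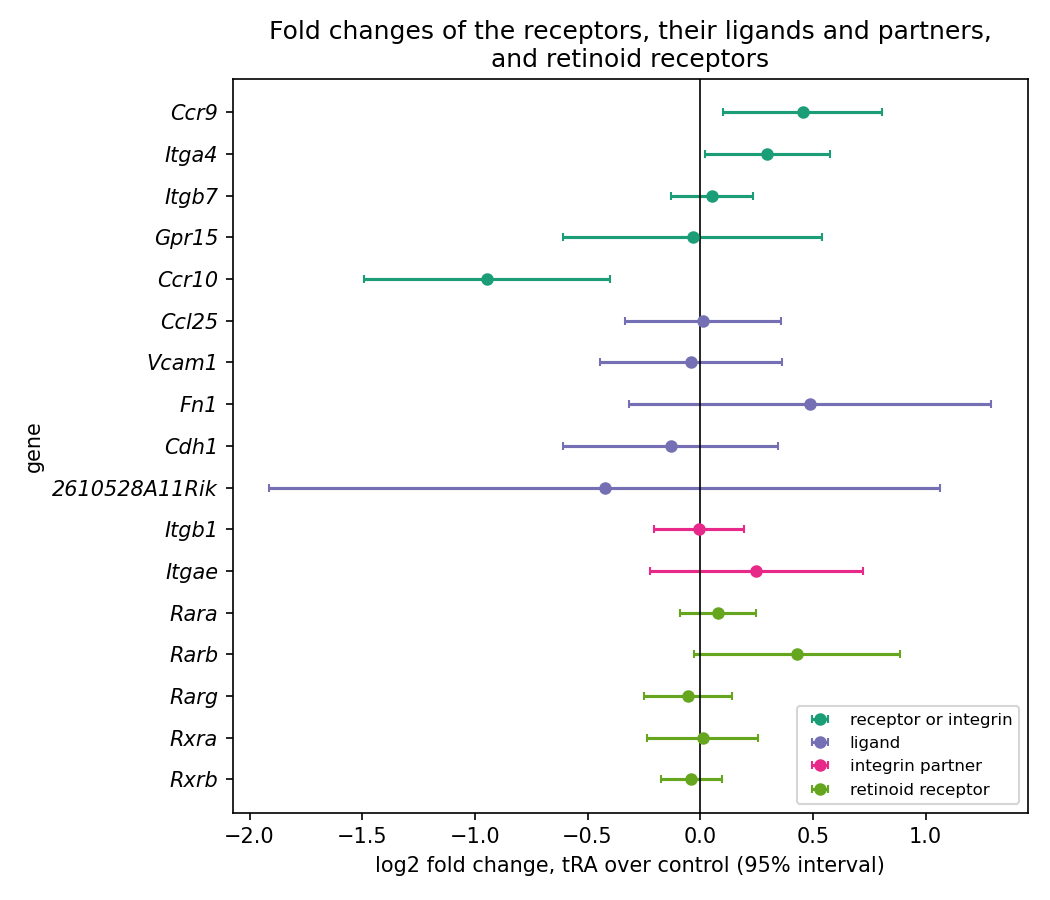
Log2 fold change of tRA over control with its 95% interval derived from the edgeR F test, for the homing receptor genes and the tested ligand, integrin partner and retinoid receptor genes (y axis). The interval of Ccr10 runs from -1.49 to -0.40, those of Ccr9 and Itga4 from 0.10 to 0.81 and from 0.02 to 0.57, and the other intervals span 0.

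Transcription factors and signals that control homing receptors were also followed. All 16 listed regulators were tested and none passed, with 7 positive and 9 negative log2 fold changes and a median of -0.02. Nfatc1 was the most abundant at 362 CPM in controls and 353 CPM with tRA (log2 fold change -0.04). Ahr, a receptor that takes part in Gpr15 expression, had the highest log2 fold change, 0.18 (SE 0.158, edgeR FDR 0.845), and Smad7, an inhibitor of TGFβ signals, the lowest, -0.18 (SE 0.181, edgeR FDR 0.858). Of 10 genes of integrin activation, which switch α4β7 to its binding state, 9 had a positive log2 fold change, the median was 0.07, and none passed. Tln1, the gene of talin, was the most abundant at 856 CPM in controls and 922 CPM with tRA (log2 fold change 0.11, edgeR FDR 0.848). Apbb1ip had the highest log2 fold change, 0.14 (SE 0.0645, edgeR FDR 0.757), and Fermt3 the lowest, -0.07 (SE 0.0588, edgeR FDR 0.848).

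Among 18 other homing receptor genes, which lead cells to lymph nodes, follicles, skin or inflamed tissue, 14 had a positive and 4 a negative log2 fold change, with a median of 0.11, and none passed. Cxcr4 was the most abundant over all mice, at 1540, 1108, 952 and 1029 CPM in control mice 1 to 4 and 1629, 1111, 260 and 404 CPM in tRA mice 1 to 4. In tRA mice 3 and 4 Cxcr4 lay far under all other mice, and the log2 fold change was -0.44 (SE 0.463, edgeR FDR 0.864). Ccr4, a receptor of skin-homing T cells, had the highest log2 fold change, 0.29 (SE 0.174, edgeR FDR 0.792). Ccr8, a receptor of skin and regulatory T cells, had the lowest, -0.71 (SE 0.290, edgeR FDR 0.757), from 1.25 ± 0.417 CPM in controls to 0.759 ± 0.177 CPM with tRA. With all 8 mice, Ccr8 was, besides Ccr10, the only homing receptor gene on either list with an unadjusted p under 0.05 and a lower level with tRA. The Ccr8 groups overlapped, with tRA mouse 2 at 1.01 CPM and control mouse 2 at 0.903 CPM. On the list of other homing receptors, no gene was lower at such a p without control mouse 4, tRA mouse 3 or tRA mouse 4. There were 3 lower and 3 higher genes at such a p without tRA mouse 1.

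Marker genes show which cells the samples held. T cell genes were all detected, led by Lck at 531 CPM in controls and 505 CPM with tRA. Their summed level was 1622, 1680, 1969 and 1965 CPM in control mice 1 to 4 and 1922, 1870, 1927 and 1896 CPM in tRA mice 1 to 4, within the control range in each tRA mouse. The T cell median log2 fold change was 0.12, from Cd3d at -0.12 to Cd28 at 0.22, with 8 positive and 2 negative. None of the 10 genes passed, and 1, Cd28, was higher with tRA at an unadjusted p under 0.05 in edgeR. Without control mouse 4, 4 were higher at such a p, and without control mouse 2 or 3 or tRA mouse 4 none was. The median was 0.06 without control mouse 1 and 0.19 without control mouse 4. The part of T cells in the differences of Ccr9 and Itga4 was not tested. Among 6 regulatory T cell genes, Foxp3 was the most abundant over all mice, while in controls alone it was at 45.8 CPM and Ctla4 at 47.3 CPM. Foxp3 had the highest log2 fold change, 0.09, and Il10 the lowest, -0.39, with a median of -0.23 and none past the test. B cell genes had a summed level of 7707 ± 510 CPM in controls and 7781 ± 102 CPM with tRA (SD, n = 4 each). Cd79a led them (log2 fold change -0.13), Ms4a1 had the highest log2 fold change, 0.20, Blk the lowest, -0.15, and none of the 9 passed. Itgb7, Itga4 and Ccr9 are known in such lymphocytes, though not in them alone.

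The list of plasma cell and IgA genes bears on Ccr10 because plasma cells carry that receptor. All 9 were tested and none passed, with 4 positive and 5 negative log2 fold changes and a median of -0.13, which was -0.02 without control mouse 1. At an unadjusted p under 0.05 in edgeR 3 were lower with tRA and 1 was higher. Jchain, the joining chain of secreted IgA and IgM, was the most abundant at 574, 537, 604 and 722 CPM in control mice 1 to 4 and 367, 541, 428 and 436 CPM in tRA mice 1 to 4 (log2 fold change -0.46, edgeR FDR 0.757). Tnfrsf17, the plasma cell receptor BCMA, had the lowest log2 fold change, -0.78 (SE 0.256, edgeR FDR 0.757), and each tRA mouse lay below each control mouse for it, as for Mzb1 and Sdc1. Igha, the constant region of IgA, had the highest, 0.50 (SE 0.192, edgeR FDR 0.757), a sign opposite to that of Ccr10. The Igha groups overlapped, at 79.8 to 136 CPM in controls and 101 to 189 CPM with tRA. Without control mouse 1 or 3 or tRA mouse 2 or 3, no gene of the list was higher at an unadjusted p under 0.05. The summed level of the list was 1153, 1135, 1150 and 1367 CPM in control mice 1 to 4 and 1047, 1242, 1001 and 966 CPM in tRA mice 1 to 4, and it overlapped between the groups. None of these markers was at 0, and the part of plasma cells in the Ccr10 difference was not tested.

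Summed neutrophil precursor genes, like Ccr10, separated the groups without overlap. All 12 had a negative log2 fold change, with a median of -0.85, and 10 had an unadjusted p under 0.05 in edgeR, although none passed. Genes of this list, Camp and Ngp among them, were DEGs in the study's own comparison of these mice. The list is therefore not independent of these data. Their summed level was 572, 721, 757 and 652 CPM in control mice 1 to 4 and 264, 328, 359 and 516 CPM in tRA mice 1 to 4. Ngp was the most abundant at 325 ± 44.0 CPM in controls and 171 ± 50.9 CPM with tRA. Camp, an antimicrobial peptide of neutrophil granules, had the lowest log2 fold change, -1.23 (SE 0.156, edgeR FDR 0.135), and Mmp8 the highest, -0.11 (edgeR FDR 0.922). None was at 0. The part of these cells in the difference of Ccr10, or in those of Ccr9 and Itga4, was not tested.

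Immediate early and heat shock genes, which respond to handling of tissue as well as to signals in life, had lower means with tRA. All 18 had a negative log2 fold change, with a median of -0.49, and 8 had an unadjusted p under 0.05 in edgeR, but none passed. The sizes depended on single mice. The median was -0.88 without tRA mouse 1, with 15 genes at such a p, and -0.29 without tRA mouse 3, with 7, and without control mouse 3 there were 5. All 18 stayed negative with any 1 mouse left out. The summed level was 24421, 22701, 25362 and 21379 CPM in control mice 1 to 4 and 22010, 18719, 9235 and 12922 CPM in tRA mice 1 to 4, lowest in tRA mice 3 and 4, the 2 mice with the highest Ccr9, while tRA mouse 1 lay within the control range. Fos was the most abundant over all mice, at 3337, 3230, 3302 and 2866 CPM in control mice 1 to 4 and 3563, 2762, 1117 and 1420 CPM in tRA mice 1 to 4. In controls alone the mean CPM of Fosb was higher, 3319 against 3184 for Fos. Hspa1a had the lowest log2 fold change, -1.35 (SE 0.452, edgeR FDR 0.757), and Ier3 the highest, -0.29 (edgeR FDR 0.858). How far this spread between mice bears on Ccr9, Itga4 or Ccr10 was not tested.

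**Figure D3:**
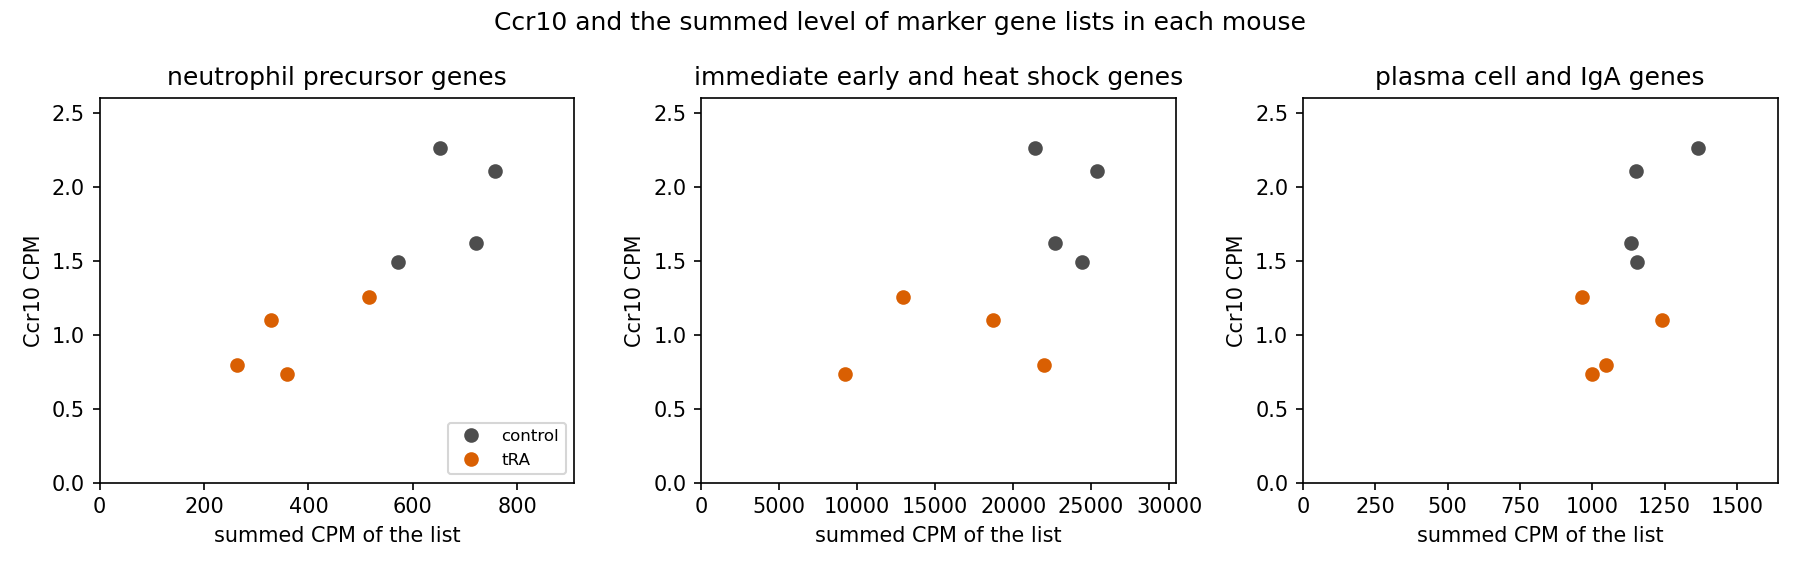
Ccr10 level in CPM (y axis) against the summed CPM of neutrophil precursor, immediate early and heat shock, and plasma cell and IgA genes (x axes), 1 point per mouse. The tRA mice lie below the control mice on both axes for the neutrophil precursor genes, at 264 to 516 CPM against 572 to 757 CPM, and overlap with them on the x axis for the other lists.

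Plasmacytoid dendritic cells can carry CCR9. Their genes had 8 of 8 negative log2 fold changes with a median of -0.11, and 2, Bst2 and Ly6d, had an unadjusted p under 0.05 in edgeR, although none passed. Without control mouse 4 or without tRA mouse 1, 5 of 8 were negative, and with a mouse left out the median ran from -0.20 (without tRA mouse 2) to -0.08 (without tRA mouse 1). Spib led them (log2 fold change -0.07), Cox6a2 had the highest log2 fold change, -0.02, and Ly6d the lowest, -0.34 (edgeR FDR 0.757). Their summed level was 1171, 969, 958 and 958 CPM in control mice 1 to 4 and 949, 944, 937 and 930 CPM in tRA mice 1 to 4. Every tRA mouse lay below every control mouse in this sum, though within a narrow range, but for no single gene of the list did the groups separate. Spib and Irf8, at 392 and 385 CPM in controls, made up most of the sum of 1014 CPM and are expressed by B cells as well. Bst2, at 34.3 CPM in controls and 27.4 CPM with tRA, had a log2 fold change of -0.32 (SE 0.0887, edgeR FDR 0.757), with tRA mouse 1 inside the control range. Siglech, Klk1 and Cox6a2 overlapped between the groups, with tRA mouse 1 lowest of all mice for each of them, and contribute little to the sum. Conventional dendritic cell genes had a median log2 fold change of -0.07 (-0.17 without control mouse 1), led by Itgax (-0.07), from Clec10a at -0.23 to Cd209a at 0.27. NK cell genes had a median of -0.06 over 6 tested of 7 (0.04 without control mouse 3, with 5 positive), with Gzma both the most abundant and the lowest (-0.13) and Ncr1 the highest (0.27). Monocyte and macrophage genes had a median of 0.01, led by Lyz2 (0.13), from Cd14 at -0.36 to Ccr2 at 0.27.

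Basophil and mast cell genes had a median of 0.03 over 7 tested of 8, led by Hdc (0.10), from Cyp11a1 at -0.30 to Ms4a2 at 0.47. Erythroid genes varied most between mice, with summed levels of 540 to 2336 CPM in controls and 638 to 3506 CPM with tRA. Hbb-bs led them (log2 fold change 0.45), Hbb-bt had the highest log2 fold change, 0.80, and Tfrc the lowest, -0.11. Endothelial and stromal genes had a median of 0.03 over 7 tested of 10, led by Pecam1 (0.00), from Pdgfrb at -0.23 to Cxcl13 at 0.34, and Madcam1 was among those too low to be tested. Without tRA mouse 3 this median was -0.27, with 7 of 7 tested genes negative, and the median of the erythroid genes, 0.35 with all mice, was -0.14, with 7 of 8 negative. No gene of these lists passed the test.

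The receptor genes lie on 5 chromosomes, and reads of overlapping neighbors may be shared between genes, since whether the counting used the strand is not given in the sources used here. Lztfl1 lies on the opposite strand inside Ccr9 (chr9:123694416-123717697) and shares 0 exon bases with it. It was higher in every tRA mouse than in every control mouse, at 15.8 CPM in controls and 19.1 CPM with tRA (log2 fold change 0.28, SE 0.0855, edgeR FDR 0.757). Slc6a20a overlaps the GENCODE start of Ccr9 with 22 exon bases in common (log2 fold change 0.66, SE 0.482, edgeR FDR 0.810). Gm10052, a pseudogene within Ccr9, had a log2 fold change of -0.07. Gm17200 and AC165425.1 share 269 and 1932 exon bases with Ccr9 and were too low to be tested, as was Gm17020. Cxcr6, the next chemokine receptor gene downstream of Ccr9 at a distance of 22144 bases, had a log2 fold change of 0.29 (edgeR FDR 0.804). Slc6a20b, Gm17120, Gm47173 and Gm47171, also within 50 kb of Ccr9, were not tested.

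Cerkl overlaps the end of Itga4 on the opposite strand, with 1124 exon bases in common, and stood at 2.00 CPM in controls and 2.37 CPM with tRA (log2 fold change 0.24, edgeR FDR 0.846), far below the CPM of Itga4. Gm22606 and Gm13673 near Itga4 were not tested. Itgb7 lies between Zfp740, which ends 388 bases from it on the opposite strand (log2 fold change 0.09), and Rarg, the retinoid receptor gene on the same strand (chr15:102234938-102257517) at a distance of 2993 bases. Rarg was at 40.9, 48.2, 53.5 and 52.4 CPM in control mice 1 to 4 and at 48.8, 45.0, 48.0 and 46.0 CPM in tRA mice 1 to 4. Like Itgb7, Rarg lay inside the control range in each tRA mouse. Csad and Mfsd5 near Itgb7 had log2 fold changes of 0.07 and -0.08, and Gm9918 was not tested. Cpox overlaps Gpr15 on the opposite strand with 204 exon bases in common (log2 fold change 0.09) and took more reads, at 21.6 CPM in controls against 1.30 CPM for Gpr15. How many reads of Gpr15 come from Cpox was not tested. Cldnd1, next to Gpr15, had a log2 fold change of -0.08, and Gm27564, Gm26019 and Olfr172 were not tested. Cntnap1, which spans Ccr10 on the opposite strand without common exon bases, was at 4.44 CPM in controls and 3.04 CPM with tRA (log2 fold change -0.54, SE 0.190, edgeR FDR 0.757), while Plekhh3 and Tubg2 on the same side had log2 fold changes of -0.10 and 0.04 and Gm27626 had 0 counts.

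RefSeq promoter windows were at hand for 4 of the receptor genes, Ccr9, Itga4, Itgb7 and Gpr15. The RefSeq start of Ccr9 lies inside the GENCODE span of the gene given above, not at its upstream end. The 250 bases before each start (GRCm38.p6) were searched on both strands for 4 forms of the core site bound by retinoic acid receptors, for direct repeats of any of these with 1, 2 or 5 bases between them, and for the runt-related site TGTGGT. Itgb7 held 1 core site, GGGTCA on the reverse strand 146 bases before its start, and the other 3 windows held none, while 38.6% of 32851 windows of the same length in the table hold at least 1. The form AGGTCA is in 14.0% of them, the form AGTTCA in 11.8%, the form GGGTCA in 11.6% and the form GGTTCA in 8.85%. Direct repeats with 1, 2 or 5 bases between are in 0.164%, 0.174% and 0.0883% of the windows, and in none of these 4. TGTGGT was found on the reverse strand in Itga4, 60 bases before the start, and at 85 and 79 bases before the start in Gpr15, and 14.0% of windows hold it. Both matches of Gpr15 lie among the 198 of its 250 bases that GENCODE annotates as exon of the gene. A match describes the letters only, and the absence of a match says nothing of the receptor or of sites elsewhere. The windows of the integrin subunit genes, whose products form a single complex, and of Ccr9, which had the highest log2 fold change of the 5, are shown 5′ to 3′ on the strand of the gene as far as they lie outside annotated exons, with matches in capitals: Ccr9 at chr9:123766961-123767168 (plus strand), Itga4 at chr2:79255176-79255425 (plus strand) and Itgb7 at chr15:102231945-102232185 (minus strand).
Ccr9: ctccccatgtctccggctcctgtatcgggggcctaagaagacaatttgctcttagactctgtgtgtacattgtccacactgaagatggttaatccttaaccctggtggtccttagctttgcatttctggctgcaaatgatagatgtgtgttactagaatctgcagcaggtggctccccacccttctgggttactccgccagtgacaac
Itga4: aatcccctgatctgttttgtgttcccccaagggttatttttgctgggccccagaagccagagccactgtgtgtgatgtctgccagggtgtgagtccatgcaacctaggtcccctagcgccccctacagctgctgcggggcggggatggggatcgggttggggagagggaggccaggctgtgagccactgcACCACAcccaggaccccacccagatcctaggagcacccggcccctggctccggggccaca
Itgb7: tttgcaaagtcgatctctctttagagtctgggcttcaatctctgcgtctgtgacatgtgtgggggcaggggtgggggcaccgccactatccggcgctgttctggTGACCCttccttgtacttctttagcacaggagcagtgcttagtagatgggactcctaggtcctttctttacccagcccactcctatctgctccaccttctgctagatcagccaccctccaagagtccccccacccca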

How the data were processed

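The authors deposited raw counts per gene for each of the 8 mice. The study's methods name ea-utils and Btrim for trimming, Bowtie2 and Tophat2 for alignment and HTSeq for counting, whereas the submitters' processing notes list STAR 2.5.2b, featureCounts 1.5.1, DESeq2 1.26.0 and the build GRCm38. Which of them made the table is not resolved here. The libraries were prepared with a TruSeq v2 kit, and strand use in counting is not given in the sources used here. A deposited DESeq2 comparison of the groups (means, log2 fold changes and p-values) was not used.

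Symbols, positions and exon lengths came from GENCODE M21, which has 51633 of the 51826 identifiers and lacks 193. The counts were fitted in R 4.3.3 with edgeR 4.0.16 (filterByExpr with a minimum of 10 counts, TMM, quasi-likelihood test, all 8 mice, group only), with FDR by Benjamini-Hochberg over the 16484 genes tested and a threshold of 0.1. Alternatives were DESeq2 1.42.0, limma 3.58.1 (voom), RLE, library size alone, 2 other filters, a replicate block and each mouse left out. Exact permutation tests used log2 CPM with a prior count of 2. Correlations and figures used Python 3.11.15, scipy 1.17.1 and matplotlib 3.10.9.

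The fits were tested on simulated data, where the share of unchanged genes among the calls was above the FDR threshold with edgeR and further above it with DESeq2. No 2 libraries of a group were alike within sampling noise. The receptor genes and the gene lists were chosen with earlier results of these data known. Named were all receptor genes, all ligand, integrin partner and retinoid receptor genes, of every other list the most abundant gene over all mice and those with the highest and lowest log2 fold change, genes that overlap a receptor gene or start within 50 kb, and the 3 genes most correlated with each. Ctla4, Cyp26a1, Cyp26b1, Fosb, Irf8, Bst2, Siglech, Klk1, Mzb1 and Sdc1 were named after their values were seen.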

Additional observations from a re-analysis of the deposited data

Results flagged for a closer look

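Of 76 groups of 4 mice examined, over the receptor, ligand, integrin partner and retinoid receptor genes and the summed gene lists, 5 held a mouse far from the other mice of its group, measured as the gap to its nearest neighbor over the whole range on the log2 scale. Chance gives about 1 in 20 groups, or 3.8 of these 76. None of the 5 receptor genes was among them. The gene of the GPR15 ligand, 2610528A11Rik, had a ratio of 0.836 with tRA, since mouse 1 had 0 counts (log2 CPM of -4.07, against -1.58 to -1.09). The summed retinoid response genes had a ratio of 0.890 in controls, with mouse 3 at 7.06 against 7.16 to 7.17. The summed plasma cell and IgA genes had 0.915 in controls, with mouse 4, the mouse with the highest Ccr10, at 10.42 against 10.15 to 10.17. The summed plasmacytoid dendritic cell genes had 0.944 in controls, with mouse 1 at 10.19 against 9.90 to 9.92. Spib (504 CPM), Irf8 (422 CPM) and Ly6d, also expressed by B cells, were highest among controls in that mouse, whereas Siglech (19.9 CPM), Klk1 (8.55 CPM) and Cox6a2 (2.71 CPM) were lowest. The summed NK cell genes had 0.863 with tRA, with mouse 4 at 8.36 against 8.52 to 8.55.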

How the results depend on the processing

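No receptor gene reached an FDR under 0.1 under any of the 15 alternatives run, and Ccr9, Itga4, Itgb7 and Ccr10 kept their direction in all of them. Over the alternatives the edgeR, DESeq2 or limma FDR ran from 0.193 to 0.999 for Ccr9, from 0.291 to 0.999 for Itga4 and from 0.150 to 0.999 for Ccr10. With a mouse left out, the log2 fold change ran from 0.36 to 0.59 for Ccr9, from 0.17 to 0.36 for Itga4, from 0.01 to 0.11 for Itgb7, from -0.16 to 0.11 for Gpr15 and from -1.09 to -0.83 for Ccr10. Gpr15 turned positive without control mouse 4 (0.11) and without tRA mouse 2 (0.11), and the cause was not tested. With library size alone, which raised the estimates of all 5 genes, it was 0.00066, so that turn of sign says nothing of Gpr15 itself. The unadjusted p was under 0.05 in 13 of the 15 alternatives for Ccr9 (not without tRA mouse 4 or control mouse 1), in 10 for Itga4 and in all 15 for Ccr10. The number of DEGs, 0 with edgeR, was 27 with DESeq2, 6 without a filter on low counts, 1 with limma-voom, 3 without tRA mouse 4 and 0 without any other mouse. The sample labels do not say whether mice with the same replicate number are paired. Deviations from the group means of such mice correlated with r of 0.16, -0.02, -0.01 and 0.26, which cannot decide it. Under the replicate block there were 0 DEGs, and the log2 fold changes were 0.44 for Ccr9, 0.29 for Itga4, 0.06 for Itgb7, -0.04 for Gpr15 and -0.95 for Ccr10, which changed no call. The unadjusted p in edgeR with the block was 0.00249 for Ccr9 (0.0164 without it), 0.0175 for Itga4 (0.0382) and 0.00376 for Ccr10 (0.00295). Of 315 list medians under the alternatives, 311 moved by less than 1 SD between mice and 4 by more: retinoid response (-0.03) and plasma cell and IgA genes (-0.02) without control mouse 1, retinoid receptors (0.11) without control mouse 2, and basophil and mast cell genes (-0.25) without tRA mouse 4. That limit is wide where mice vary. With a mouse left out, the median turned sign for 11 of the 21 lists and moved by over 1.5 times for 19, the exceptions being the other homing receptors (0.08 to 0.14) and the neutrophil precursors (-1.07 to -0.70). The widest of those that turned were the erythroid genes (-0.14 to 0.70) and the endothelial and stromal genes (-0.27 to 0.20), and the immediate early and heat shock genes ran from -0.88 to -0.29. A prior count of 0.5 in the exact permutation tests changed no direction and no side of the threshold. With the longest coding transcript as length, chosen after seeing the data, mean RPKM was higher for Ccr9 and Itga4 by more than 1 SD and the order of the 5 genes in controls was the same. The 26 to 73 counts per mouse limit Gpr15 and Ccr10.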
